A study of Mus musculus with 9 samples.

Results

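The 10 genes described here encode the interleukins and the TNF of a macrophage cytokine panel: Il1a, Il1b, Il1rn, Il6, Il10, Il15, Il16, Il18, Il27 and Tnf. They were found by symbol among the 24411 genes of the deposited table, and all 10 were listed. Each value is a TPM, the reads of a gene divided by the length of its transcripts and scaled so that every library has the same sum, so that levels of different genes within a library can be compared per length. The 9 libraries came from stably proliferating C57BL/6 mouse macrophages, 3 YS lines from the yolk sac at E9.5, 3 FL lines from the fetal liver at E14.5 and 3 BM lines from adult bone marrow, with 1 poly(A)-selected, directional library per line. All the lines were expanded and kept in M-CSF, the growth factor on which they depend, and no stimulus such as LPS is named for these libraries. A line was the bulk culture of a separate dish or well, and the starting cells were pooled from more than 1 mouse, so p-values measure the spread among cultures and not among animals. No allele or transgene is named for any group. Origin went together with donor stage, seeding density and length of expansion, and for YS lines also with the culture vessel. Effects of these cannot be told apart from those of origin. TPM keeps no read number, so the depth behind each value is unknown.

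Interleukins and TNF are secreted or surface-bound messengers of immune cells, and macrophages are a major source of several of them. In resting macrophages several of these genes are kept low by chromatin and by short-lived mRNAs, while bacterial products raise them through NF-kB. IL-1β and IL-18 are made as inactive precursors that caspase-1 cuts, a step that acts on the protein and not on the mRNA. The 10 genes fall into the IL-1 family (the agonists Il1a, Il1b and Il18 and the receptor antagonist Il1rn), the pyrogenic cytokines Il6 and Tnf, the cytokine Il10 that restrains inflammation, the IL-27 p28 subunit Il27, and the lymphocyte-directed cytokines Il15 and Il16.

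The lines were macrophages by their markers. All 8 genes of a macrophage list were present in every library, with Csf1r, the M-CSF receptor, between 1086 and 2441 TPM, whereas T and NK cell, B cell, mast cell and fibroblast lists summed to at most 2.63 TPM. Some lists moved with the groups, the macrophage list among them, which summed to between 4215 and 9309 TPM in YS lines, 11786 and 28521 in FL lines and 11717 and 13300 in BM lines. Its gene Fcgr1 was between 1.68 and 42.10 TPM in BM lines and between 110.13 and 329.94 in the others, and YS line 1 had the lowest Csf1r, Cd68 and Lyz2 of all lines. The endothelial list summed to between 21.9 and 55.7 TPM in YS lines, 18.9 and 51.7 in FL lines and 0.14 and 2.64 TPM in BM lines, carried by Kdr and Tie1 with Emcn listed at 0 in all lines. The megakaryocyte list, carried by Pf4, summed to between 230.2 and 2123 TPM in YS lines, 615.3 and 1729 in FL lines and 38.6 and 392.7 TPM in BM lines. The neutrophil list reached 25.6 in FL lines, 5.00 TPM in BM lines and 2.46 TPM in YS lines, all of it S100a8 to within 0.49 TPM, with S100a9 listed at 0 in all lines, and the dendritic cell list stayed between 2.88 and 8.26 TPM. The part of other cells in the results below was not tested, and in bulk libraries fewer cells that express a gene and less of its RNA per cell cannot be told apart. BM line 2 stood apart: it held 214.99 TPM of the globin gene Hba-a1, which was at most 8.62 TPM elsewhere, while Hbb-bs was listed at 0 in all lines, and its correlation with YS line 2 across genes was 0.934, the highest of any YS and BM pair. Several results that rest on BM line 2 or on the least typical line of a group are given with and without it. Neighbouring genes on the chromosome that were on no other list were not refitted with a line left out.

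The sequences shown first are starts of low genes (Il1a, Il6), genes differing between groups (Il16, Il18 and the low Il1b) and Tnf, which was neither. They are the 80 bases before the RefSeq start of 6 members, on the strand of the gene, in GRCm38.p6. Capitals mark matches to TATAAA (the TATA box), TGANTCA (AP-1), TTNNGNAA (C/EBP), GAGGAA (PU.1) and the NF-kB consensus, searched on both strands together with TGACGTCA (CRE) and GAAANNGAA (IRF), of which no member's window held a match, with overlapping matches run together (in Il1a the C/EBP and PU.1 matches share bases).
Il1a (chr2:129309973-129310052, minus strand): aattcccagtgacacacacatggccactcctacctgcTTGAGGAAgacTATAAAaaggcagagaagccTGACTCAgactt
Il1b (chr2:129371140-129371219, minus strand): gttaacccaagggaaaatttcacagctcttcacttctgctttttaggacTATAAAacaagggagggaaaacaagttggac
Tnf (chr17:35202008-35202087, minus strand): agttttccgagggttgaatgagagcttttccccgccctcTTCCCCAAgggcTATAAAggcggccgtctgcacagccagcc
Il6 (chr5:30013034-30013113, plus strand): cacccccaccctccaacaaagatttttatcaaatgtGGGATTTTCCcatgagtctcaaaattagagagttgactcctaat
Il18 (chr9:50554620-50554699, plus strand): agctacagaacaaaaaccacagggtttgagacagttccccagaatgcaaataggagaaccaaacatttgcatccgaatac
Il16, first start (chr7:83735540-83735619, minus strand): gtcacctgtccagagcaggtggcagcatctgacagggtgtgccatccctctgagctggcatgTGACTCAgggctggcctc
Il16, last start (chr7:83655496-83655575, minus strand): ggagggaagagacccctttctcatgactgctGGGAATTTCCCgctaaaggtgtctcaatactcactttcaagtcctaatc
TATAAA began 32, 31 and 29 bases before the start of Il1a, Il1b and Tnf. Of the 32851 promoters in the RefSeq table, 2.01% held it on the gene's strand between 45 and 21 bases before the start, and 13.6% held it on either strand anywhere in the 250 bases before to 50 after. None of the windows of Il1rn, Il6, Il16 and Il18 had TATAAA on the gene's strand. The NF-kB consensus was found 44 bases before the start of Il6 and 49 before the last start of Il16, and 4.51% of all promoters held it. AP-1 matches began at position -12 of Il1a, -18 of the first start of Il16, -141 of the first start of Il1rn and -249 of Il6, counted from the start, against 7.81% of all promoters with a match. The table matched 7 of the 10 members.

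The members also differed in their 3′ UTRs, where the AU-rich core TATTTAT is a known landing place of proteins that shorten mRNA life or block translation. This motif was searched after the levels had been seen. Copies were counted in a single coding transcript per gene of GENCODE M21, chosen by its principal-transcript tag and then by greatest length. Tnf held 8 copies, Il10 and Il27 held 4 each, Il1a and Il1b 3 each and Il6 1, overlapping copies included. Il1rn, Il15, Il16 and Il18 held none. Of the 10748 tested genes with such a transcript, 27.9% held at least 1 copy and 1.26% at least 4. The median UTR length of these genes was 986 bases. Without copies, Il18 and Il15 had 123 and 277 bases and Il16 and Il1rn 1064 and 1864, while Il27 had 285. Stretches of 30 bases from the UTRs of Tnf, Il27 and Il1b are shown, with the copies in capitals. They were picked as the stretches with the most copies, and the copies of Il10 lay further apart.
Tnf: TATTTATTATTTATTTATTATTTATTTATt
Il27: TATTTATttcttggaTATTTATTTATtttt
Il1b: TATTTATTTATgTATTTATtgattggttga
The 4 members without the motif were all above 7 TPM in every YS and FL line, but in BM lines Il16, one of them, was at 0.12, 2.22 and 0.41 TPM, as low as Il10 and Il27, which held it. Of the 6 with it, Tnf alone exceeded 10 TPM in any line. Across lines the ranges still met, since Il27, with 4 copies, reached 9.27 TPM in YS line 3. This exceeded Il1rn in YS line 1 (7.59 TPM) and Il16 in FL line 1 (8.44 TPM). Within each YS and FL line Il27 stayed below all 4 members without the motif, in YS line 1 only just (7.51 TPM). Tnf, with the most copies, ranged from 50.74 to 137.22 TPM. Whether the motif bears on these levels was not tested.

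Differences between groups were tested on log2(TPM + 1), where the fold change of a low gene comes out too small, with 1 limma model over the 9 libraries. Benjamini-Hochberg adjustment covered the 11753 genes that reached 1 TPM in 3 libraries or more. A call needed an adjusted p under 0.1 together with a difference above 2-fold. Il1a and Il6 did not pass the filter. Il1b passed only through YS line 2 and the FL lines, which were the groups in which it was high, so its test is given with that reservation. With 3 lines against 3, no exact permutation test can go below a two-sided p of 0.1. Of the 8 members tested, 5 were called in YS against BM lines, of which YS lines had 4 higher and 1 lower, beside 12.8% of all genes tested (7.57% higher and 5.22% lower). In FL against BM lines, 2 were called, both higher in FL lines, beside 10.3% of all genes (6.01% higher and 4.3% lower). Between YS and FL lines limma called 0 of the 8, beside 3.79% of all genes (1.95% higher and 1.85% lower), and 3 members (Il15, Il16 and Il1b) had an unadjusted p under 0.05. Without BM line 2 the counts of called members were 4, 2 and 1, and in YS against BM lines 3 were called without YS line 1 or BM line 3. In YS against FL lines 1 was also called when YS line 2, YS line 3, FL line 1 or FL line 2 was left out. The groups did not overlap for 5, 4 and 1 of the 8 members in these comparisons, beside 49%, 49.5% and 26.1% of all genes tested. The median log2 difference of the 8 members was 0.98, 0.72 and 0.33, beside 0.11, 0.09 and 0.02 over all genes. YS and FL lines were each compared with the same BM lines, so the first pair of comparisons is not independent.

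**Figure D1:**
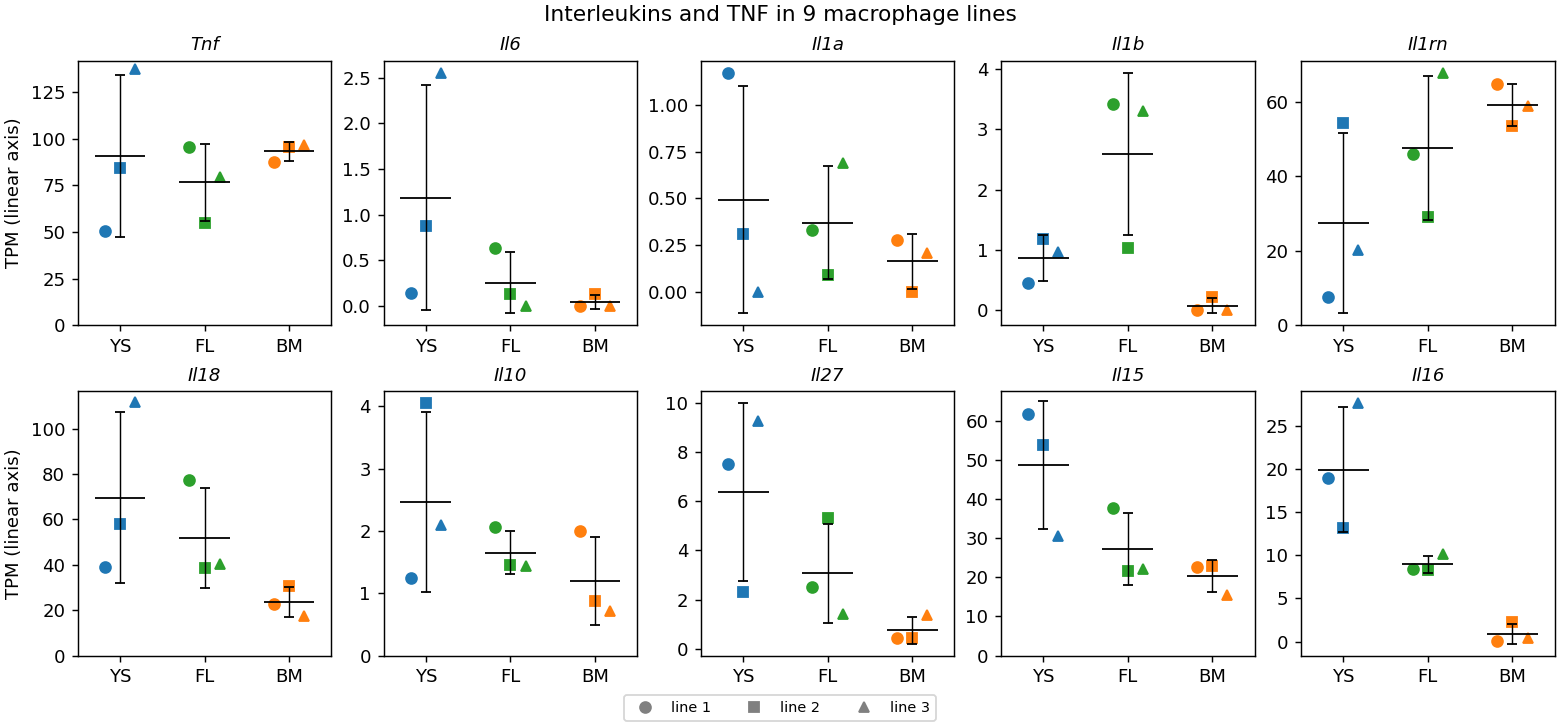
TPM of the 10 members in each line (points; circle, square and triangle are lines 1, 2 and 3) with the group mean (long bar) and SD (whiskers), n = 3 lines a group, on a linear axis with its own range in each panel. Il16 separated all 3 groups, with YS lines at 13.15 TPM or more, FL lines between 8.26 and 10.09 TPM and BM lines at 2.22 TPM or less, whereas Tnf overlapped in all 3.

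**Figure D2:**
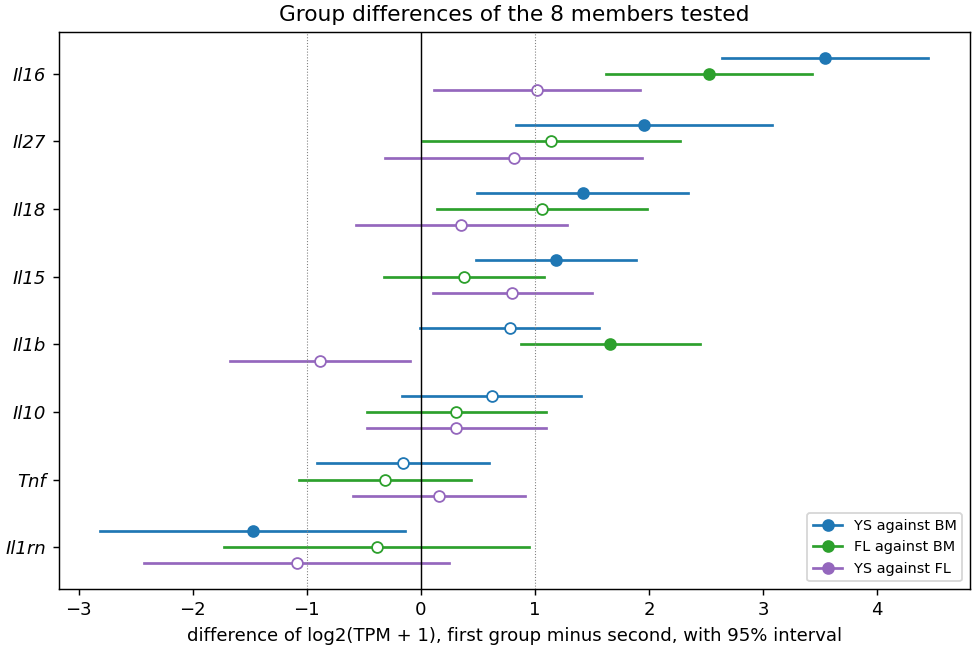
Difference of log2(TPM + 1) between groups (points) with its 95% interval from limma (lines) for the 8 members tested. Filled points were called, and dotted lines mark a 2-fold change. Il16 lay furthest from 0 in both comparisons with BM lines, and no filled point belongs to the comparison of YS with FL lines.

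Il16 encodes a precursor whose C-terminal part is a chemoattractant that acts through CD4. It was at 18.94, 13.15 and 27.56 TPM in the YS lines 1, 2 and 3, 8.44, 8.26 and 10.09 in FL lines and 0.12, 2.22 and 0.41 in BM lines. The groups stood in the order YS, FL and BM with no overlap between neighbours. The log2 difference was 3.54 ± 0.40 (SE) in YS against BM lines (adjusted p = 0.0014, limma) and 2.52 ± 0.40 in FL against BM lines (adjusted p = 0.0037), and it stayed called under every alternative. YS and FL lines differed by 1.02 ± 0.40 (adjusted p = 0.16), which was not called. The highest BM value was that of BM line 2, and without this line the differences from BM lines were 4.00 and 2.98, while that of YS against FL lines passed the threshold (adjusted p = 0.098) at the same size. Cd4, which encodes the receptor, was under 1 TPM in every line, with 0.78, 0.29 and 0.51 TPM in YS lines.

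The next gene along the chromosome bears on how firmly Il16 can be read. Il16 shares 10303 bases with Stard5, a lipid transfer gene on the opposite strand, in GENCODE M21, and whether reads were counted by strand is not stated, so reads of the shared stretch are uncertain. Stard5 was at 18.19, 14.28 and 19.03 TPM in the YS lines, 18.11, 17.10 and 17.88 in FL lines and 8.62, 8.58 and 7.92 in BM lines. Its differences from BM lines, 0.95 and 1.00 on the log2 scale (adjusted p = 0.003 and 0.0021), were just under the 2-fold threshold. Il16 and Stard5 thus differed in how they ranked YS and FL lines, since Stard5 overlapped between those groups and Il16 did not. Tmc3, the gene beyond Stard5, was at 0.03, 0.42 and 0.53 TPM in the YS lines, 2.40, 1.34 and 2.34 in FL lines and 0.14, 0.06 and 0.10 in BM lines, and was called higher in FL than in BM lines (1.44, adjusted p = 0.0071) and lower in YS than in FL lines (-1.19, adjusted p = 0.047). It passed the filter only through the FL lines, the group in which it was high. Over the 9 libraries, the genes nearest to Il16 in pattern were Ccl4, a chemokine of inflammatory cells, 5031414D18Rik and Vamp5, with mean absolute differences of centred log2(TPM + 1) of 0.31, 0.33 and 0.33, where the median over all tested genes was 1.32.

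Il27 encodes the p28 subunit that pairs with EBI3 to form IL-27, a cytokine that acts on T cells. Its values were 7.51, 2.33 and 9.27 TPM in YS lines, 2.52, 5.31 and 1.41 in FL lines and 0.46, 0.43 and 1.38 in BM lines. Every YS and FL line was above every BM line, FL line 3 only barely so. Il27 was called in YS against BM lines, with a log2 difference of 1.96 ± 0.49 (adjusted p = 0.021, limma), under all 20 alternatives. In FL against BM lines the difference of 1.14 ± 0.49 (adjusted p = 0.14) was not called, and it was called without YS line 2 (adjusted p = 0.078). Its partner Ebi3 stood at 79.26, 110.08 and 134.15 TPM in YS lines, 106.79, 119.52 and 128.73 in FL lines and 72.26, 99.82 and 79.46 in BM lines, and was not called in any comparison. Ebi3 mRNA therefore exceeded Il27 mRNA per length in every line, by between 10.6 and 47.2 times in YS lines, 22.5 and 91.3 times in FL lines and 57.6 and 232.1 times in BM lines. Il27ra, the receptor chain particular to IL-27, was at most 0.38 TPM. The genes nearest to Il27 in pattern were Gm13251, Pla2g16 (a phospholipase) and Ptch1 (the Hedgehog receptor), with mean absolute differences of 0.36, 0.36 and 0.37 beside a median of 0.83. Il27 and Apobr overlap by 103 bases on opposite strands, and Apobr, at 74.39 to 147.64 TPM, was not called in any comparison.

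Il18 encodes the precursor of IL-18, which drives interferon-γ production by lymphocytes. It was at 39.23, 57.82 and 111.68 TPM in the YS lines, 77.42, 38.39 and 40.19 in FL lines and 22.83, 30.45 and 17.62 in BM lines. All YS and FL lines were above all BM lines, and YS and FL lines overlapped. The log2 difference was 1.42 ± 0.41 in YS against BM lines (adjusted p = 0.033, limma), which was lost without BM line 3 (1.23, adjusted p = 0.12). In FL against BM lines it was 1.06 ± 0.41 (adjusted p = 0.1), just short of the threshold, and it was called without YS line 1 (adjusted p = 0.059) or YS line 3 (adjusted p = 0.046), which enter that test only through the estimate of the spread.

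The genes that receive and restrain IL-18 were compared next. Il18rap, the accessory chain of the IL-18 receptor, was at 113.06, 48.02 and 56.65 TPM in the YS lines, 6.43, 7.38 and 4.09 in FL lines and 4.09, 11.21 and 7.31 in BM lines. It was the only called gene among the 10 receptor genes tested, and was higher in YS lines than in BM lines by 3.10 ± 0.40 on the log2 scale (adjusted p = 0.0022) and than in FL lines by 3.33 ± 0.40 (adjusted p = 0.0076), under every alternative. The ligand-binding chain Il18r1 was at 0.67, 0.14 and 0.17 TPM in the YS lines and listed at 0 in all FL and BM lines, so that the accessory chain was present without a comparable level of its partner. Il18bp, the secreted decoy of IL-18, was at 13.64, 8.98 and 10.76 TPM in the YS lines, 6.22, 4.37 and 5.69 in FL lines and 4.36, 4.92 and 2.96 in BM lines. It was called in YS against BM lines (1.26 ± 0.22, adjusted p = 0.0061), where a pseudocount of 4 brought it to 0.90, and it was not called in YS against FL lines (0.91, adjusted p = 0.057). The ratio of Il18 to Il18bp overlapped between groups, at 2.88, 6.44 and 10.4 in YS lines, 12.4, 8.78 and 7.06 in FL lines and 5.24, 6.19 and 5.95 in BM lines, the FL lines lying above the BM lines. Sigirr, an inhibitory receptor of the IL-1 family, was at 20.00, 4.00 and 1.44 TPM in the YS lines, 0.66, 0.81 and 0.62 in FL lines and 0.53, 0.21 and 0.23 in BM lines. It was called in YS against BM lines (2.27 ± 0.65, adjusted p = 0.033), a call lost without BM line 3 (2.22, adjusted p = 0.1), and YS line 1 stood far above the other lines. Sigirr reached 1 TPM in YS lines alone, so it passed the filter only through the group in which it was high, and its test carries the same reservation as that of Il1b. With any YS line left out Sigirr did not pass the filter, so no difference without YS line 1 is available.

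**Figure D3:**
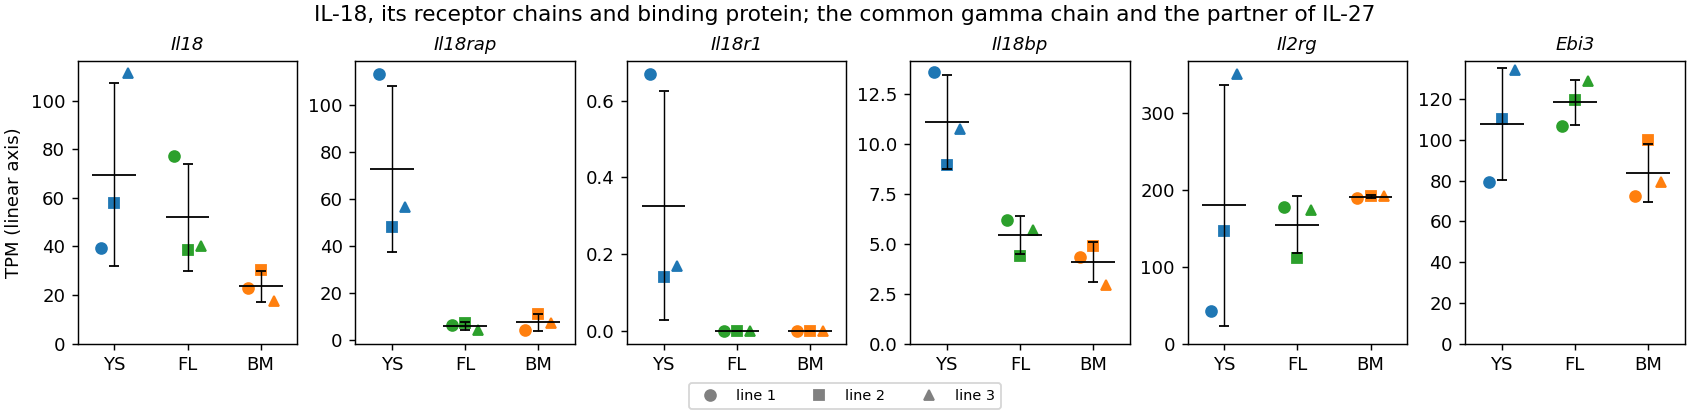
TPM of Il18, its receptor chains Il18rap and Il18r1, its binding protein Il18bp, the common gamma chain Il2rg and the IL-27 partner Ebi3 in each line, with the group mean and SD (n = 3 lines a group), on linear axes that differ between panels. Il18rap was at 48.02 TPM or more in YS lines and did not pass 11.21 TPM elsewhere, whereas Il18r1 did not exceed 0.67 TPM.

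Neighbours of Il18 were also examined. Bco2, which encodes a carotenoid-cleaving enzyme and overlaps Il18 by 355 bases on the opposite strand, was at 22.56, 20.09 and 42.74 TPM in the YS lines, 23.82, 22.40 and 16.50 in FL lines and 1.74, 4.90 and 0.87 in BM lines. Its log2 difference from BM lines was 3.16 ± 0.43 in YS lines (adjusted p = 0.0026) and 2.80 ± 0.43 in FL lines (adjusted p = 0.0033). Bco2 and Il18 were thus both lower in BM lines, Bco2 by more, and reads of the shared bases cannot be assigned with certainty. Tex12 overlaps Il18 by 4507 bases on the opposite strand and was at most 0.47 TPM. Stat2, a mediator of interferon signalling, was the gene nearest to Il18 in pattern (mean absolute difference 0.17, median over all genes 0.66), followed by Txlnb and by Hdc, the histamine-forming enzyme (0.19 and 0.20).

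Il15 encodes a cytokine that macrophages present to NK and memory T cells on the IL-15 receptor α chain. It was at 61.80, 53.78 and 30.42 TPM in the YS lines, 37.69, 21.71 and 22.15 in FL lines and 22.49, 22.84 and 15.47 in BM lines. YS lines lay above BM lines without overlap, while FL lines overlapped both. The log2 difference was 1.18 ± 0.31 in YS against BM lines (adjusted p = 0.023, limma), which fell to 0.98 without YS line 1 (adjusted p = 0.058) and was then not called, being under 2-fold. FL and BM lines differed by 0.38 ± 0.31 (adjusted p = 0.43). YS and FL lines differed by 0.80 ± 0.31 (adjusted p = 0.15), a difference that was called without YS line 3 (1.10, adjusted p = 0.062) or FL line 1 (1.05, adjusted p = 0.088). Il15ra, the presenting chain, lay between 6.60 and 11.13 TPM and was not called. Of the chains that receive IL-15 on lymphocytes, Il2rb was listed at 0 in every line but YS line 1, at 0.16 TPM, and Il2rg ranged from 43.05 TPM in YS line 1 to 351.55 TPM in YS line 3 and was not called. Among the neighbours of Il15, Rnf150 was called higher in YS and FL lines than in BM lines (1.05 and 1.04 on the log2 scale, adjusted p = 0.0057 and 0.0056). Cdca7, Rnf144b and Glrx5 were nearest to Il15 in pattern, with mean absolute differences of 0.15, 0.16 and 0.18 beside a median of 0.55.

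Il1rn, the secreted antagonist that occupies the IL-1 receptor without signalling, was the single called member that was lower in YS lines. It was at 7.59, 54.28 and 20.10 TPM in the YS lines, 46.01, 28.90 and 67.74 in FL lines and 64.87, 53.53 and 58.88 in BM lines. YS line 2 was above BM line 2, so the groups overlapped, and the YS lines were spread over a wider range than the other groups. The log2 difference of -1.47 ± 0.59 in YS against BM lines (adjusted p = 0.093, limma) was called in 8 of 20 alternatives. It was -0.81 without YS line 1 (adjusted p = 0.21) and -2.15 without YS line 2 (adjusted p = 0.013). The adjusted p lay between 0.1 and 0.21 without YS line 3, FL line 1, FL line 3 or any 1 of the BM lines, and the call was lost. YS and FL lines differed by -1.09 ± 0.59 (adjusted p = 0.28), which became -1.77 without YS line 2 (adjusted p = 0.058) and -0.43 without YS line 1 (adjusted p = 0.57). The genes nearest to Il1rn in pattern were Spa17, Nedd4l (a ubiquitin ligase) and Bbs7, with mean absolute differences of 0.22, 0.25 and 0.26 beside a median of 0.82.

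The agonists of the same receptor were near 0. Il1b, the precursor of IL-1β, was at 0.44, 1.18 and 0.96 TPM in the YS lines, 3.42, 1.03 and 3.31 in FL lines and 0.00, 0.22 and 0.00 in BM lines. All YS and FL lines were above all BM lines. The log2 difference of FL against BM lines was 1.66 ± 0.35 (adjusted p = 0.012, limma), a value that moved with the pseudocount, to 4.02 at 0.1 and to 0.67, no longer 2-fold, at 4. In YS against BM lines it was 0.78 ± 0.35 (adjusted p = 0.12) and was called at a pseudocount of 0.1 (2.61, adjusted p = 0.034). YS against FL lines gave -0.88 ± 0.35 (adjusted p = 0.16), which was called without FL line 2 (-1.25, adjusted p = 0.098). Il1a, the membrane-held agonist, was at 1.17, 0.31 and 0.00 TPM in the YS lines, 0.33, 0.09 and 0.69 in FL lines and 0.28, 0.00 and 0.21 in BM lines, with overlap between all groups. Il1rn mRNA was above Il1a and Il1b mRNA per length in every line. Espnl, Cask and Ccr1l1 were nearest to Il1b in pattern, with mean absolute differences of 0.21, 0.22 and 0.22 beside a median of 0.67.

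Around Il1a and Il1b on chromosome 2, F830045P16Rik, Slc20a1 and Sirpa were higher in FL than in BM lines, as Il1b was. Ckap2l was not (-0.19, adjusted p = 0.46, limma). F830045P16Rik, next to Il1b, was at 2.41, 6.28 and 5.86 TPM in the YS lines, 12.70, 8.42 and 10.88 in FL lines and 2.66, 4.93 and 4.87 in BM lines, and was called in FL against BM lines (1.20, adjusted p = 0.036) and lower in YS than in FL lines (-1.06, adjusted p = 0.095). Ckap2l, a spindle gene next to Il1a, lay between 53.46 and 88.17 TPM, and neither it nor Slc20a1 nor Sirpa, the receptor of CD47, was called. Slc20a1 and Sirpa were higher in FL than in BM lines by 0.57 and 0.66 (adjusted p = 0.0086 and 0.043, limma), under 2-fold. Beside Il1rn, the IL-1 family genes Il1f5 and Il1f10 were listed at 0 in all lines, Pax8 was at most 0.47 TPM, and Psd4 lay between 80.23 and 107.76 TPM and was not called. Of the receptors, Il1r1, the signalling receptor, was at most 0.09 TPM. Il1r2, the decoy receptor, was at 0.77, 1.51 and 0.68 TPM in the YS lines but at most 0.11 TPM in the others. Il1rap, the shared accessory chain, was between 5.31 and 12.65 TPM and was not called. Its differences from BM lines were under 2-fold, at 0.77 in FL lines and 0.58 in YS lines (adjusted p = 0.0084 and 0.023, limma). Neither group overlapped BM lines for Il1rap.

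Tnf was among the most abundant members in every group. It was at 50.74, 84.31 and 137.22 TPM in the YS lines, 95.88, 54.91 and 79.41 in FL lines and 87.51, 95.78 and 96.95 in BM lines. The 3 groups overlapped, and the YS lines spanned a wider range than all other lines together. The log2 differences were -0.15 (95% interval -0.91 to 0.60) in YS against BM lines, -0.32 (-1.07 to 0.44) in FL against BM lines and 0.16 (-0.59 to 0.92) in YS against FL lines, with adjusted p of 0.75, 0.55 and 0.78 (limma), so that changes of up to about 2-fold are within the intervals. Within the lines, the percentile of Tnf among tested genes ranged from 66.2 to 88.2. The signs of these differences rested on single lines: YS against BM lines gave 0.20 without YS line 1, and YS against FL lines gave -0.19 without YS line 3 and -0.06 without FL line 2. Tnfrsf1a, the widely expressed TNF receptor, lay between 164.38 and 247.85 TPM, and Tnfrsf1b, the receptor of immune cells, between 51.62 and 109.86 TPM, and neither was called.

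Genes beside Tnf on chromosome 17 differed between groups while Tnf was not called. Lst1, a leukocyte membrane gene, was at 175.16, 260.45 and 258.62 TPM in the YS lines, 196.00, 381.91 and 368.30 in FL lines and 50.76, 110.35 and 62.48 in BM lines, higher than BM lines by 1.68 ± 0.34 and 2.08 ± 0.34 on the log2 scale (adjusted p = 0.0099 and 0.0044). Nfkbil1 was at 36.13, 24.58 and 29.09 TPM in the YS lines, 22.53, 26.95 and 23.65 in FL lines and 9.95, 12.49 and 8.75 in BM lines, with differences of 1.44 and 1.16 (adjusted p = 0.002 and 0.0033). Ltb, a lymphotoxin chain, was at 5.05, 2.31 and 3.88 TPM in the YS lines, 1.71, 1.14 and 1.01 in FL lines and 0.57, 1.60 and 0.71 in BM lines. It was called higher in YS lines than in BM lines (1.27, adjusted p = 0.017) and FL lines (1.02, adjusted p = 0.083). The latter call was lost in 14 of its alternatives. Lta, the other lymphotoxin chain, was at most 0.42 TPM.

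Il10 and Il6 were low in all lines. Il10 was at 1.24, 4.06 and 2.10 TPM in the YS lines, 2.06, 1.46 and 1.44 in FL lines and 2.00, 0.88 and 0.71 in BM lines. The groups overlapped, and no difference was called: 0.62 ± 0.34 in YS against BM lines (adjusted p = 0.21, limma), 0.31 ± 0.34 in FL against BM lines (adjusted p = 0.58) and 0.31 ± 0.34 in YS against FL lines (adjusted p = 0.59), the last of which was -0.00 without YS line 2. Its receptor chains were far above the ligand. Il10ra ranged from 35.17 to 79.33 TPM and Il10rb from 190.21 to 327.94 TPM, and neither was called. Il10rb was higher in FL than in BM lines by 0.59 (adjusted p = 0.0069, limma) and differed by -0.60 in YS against FL lines (adjusted p = 0.028). Il10ra was higher in YS than in BM lines by 0.59 (adjusted p = 0.077). In these pairs the groups did not overlap, and each difference was under 2-fold. In the neighbourhood of Il10, the related cytokine genes Il19 and Il20 were at most 0.21 TPM, Mapkapk2, a kinase of the p38 pathway, lay between 130.74 and 274.36 TPM and was not called, and Dyrk3, a kinase gene, was at 0.49, 3.46 and 5.68 TPM in the YS lines, 2.46, 1.35 and 2.96 in FL lines and 23.75, 15.55 and 23.07 in BM lines. Dyrk3 was lower than in BM lines, with log2 differences of -2.60 ± 0.50 in YS lines and -2.75 ± 0.50 in FL lines (adjusted p = 0.0083 and 0.0067). Il6 was at 0.14, 0.87 and 2.55 TPM in the YS lines, 0.63, 0.13 and 0.00 in FL lines and 0.00, 0.13 and 0.00 in BM lines, so that only YS line 3 exceeded 1 TPM. Fitted with no filter, the log2 difference of Il6 was 0.91 ± 0.38 in YS against BM lines (adjusted p = 0.14). Both chains of its receptor were present in all lines, Il6ra between 26.43 and 36.69 TPM and Il6st, which encodes gp130, between 26.85 and 47.65 TPM, and neither was called.

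The surrounding pathway was described with 90 genes in 6 roles, a list written with earlier results of these data known. Of these, 89 were listed, 61 passed the filter and 10 were listed at 0 in all lines. In YS against BM lines 16 were called, with 12 above and 4 below BM lines, beside 12.8% of all genes tested. The 12 include Sigirr, which passed the filter only through the YS lines, where it was high. In FL against BM lines 5 were called, 2 higher and 3 lower, beside 10.3% of all genes, and in YS against FL lines 6, all higher in YS lines, beside 3.79%. The FL against BM count was 3 without FL line 1, 8 without FL line 3 and 2 without BM line 1 or BM line 3. The YS against FL count was 1 without FL line 2, 2 without FL line 3 and 3 without any 1 of the BM lines. The median log2 difference of the 61 genes was 0.27, 0.15 and 0.16 in these comparisons, beside 0.11, 0.09 and 0.02 over all genes tested.

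**Figure D4:**
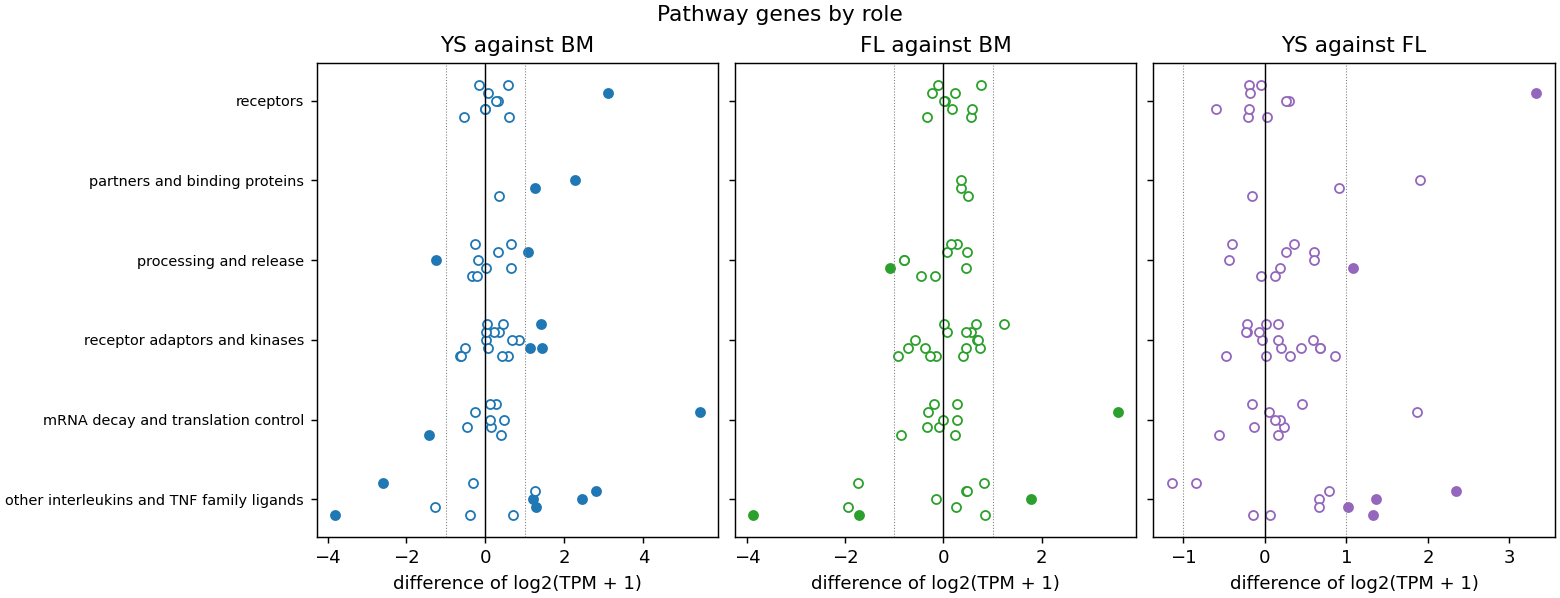
Difference of log2(TPM + 1) for the 61 pathway genes tested, by role (rows) and comparison (panels), each panel with its own range. Filled points were called, and dotted lines mark a 2-fold change; the vertical offset within a row has no meaning. The called receptor is Il18rap, and in both comparisons with BM lines the called genes of largest size are Zfp36l1 above 0 and Tnfsf13 below it.

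Of the 10 genes that process or release these cytokines, those called in some comparison included Casp4 and Gsdmd. Casp1, which cuts the IL-1β and IL-18 precursors, was at 207.88, 248.15 and 522.98 TPM in the YS lines, 296.52, 212.89 and 287.84 in FL lines and 201.99, 192.22 and 178.32 in BM lines and was not called, although every YS and FL line was above every BM line. Casp4, which encodes the sensor of cytosolic LPS, was at 72.06, 66.58 and 137.52 TPM in the YS lines and 41.96, 45.58 and 34.51 in BM lines, and its difference of 1.09 (adjusted p = 0.049) was under 2-fold without YS line 3 (0.76, adjusted p = 0.11) and not called without BM line 1 (1.12, adjusted p = 0.12) or BM line 3 (0.98, adjusted p = 0.15). It also fell under 2-fold with quantile normalization (0.94) and median-of-ratios scaling (0.98). In FL lines Casp4 was at 79.60, 34.35 and 66.94 TPM, and was not called against BM lines (0.48, adjusted p = 0.38, limma). Gsdmd, the pore through which IL-1β leaves the cell, was at 125.25, 130.82 and 134.99 TPM in the YS lines, 59.55, 35.50 and 106.03 in FL lines and 149.27, 128.73 and 114.21 in BM lines. It was lowest in FL lines, with -1.08 against BM lines (adjusted p = 0.048) and 1.09 in YS against FL lines (adjusted p = 0.086). The first of these was -0.70 without FL line 2 (adjusted p = 0.084) and had an adjusted p of 0.1 to 0.16 without FL line 1 or any 1 of the BM lines. The second was lost without any 1 of the 9 lines except FL line 3, and was 0.71 without FL line 2.

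Of the 17 adaptors, kinases and signal transducers, those called included Tyk2 and Socs1, both higher in YS than in BM lines. Tyk2, a Janus kinase, was at 51.02, 47.52 and 111.71 TPM in the YS lines and 28.61, 28.43 and 30.53 in BM lines (1.12, adjusted p = 0.024), and fell under 2-fold without YS line 3 (0.74, adjusted p = 0.014) and with quantile normalization (0.97). Socs1, an inhibitor of that pathway, was at 3.77, 4.15 and 6.46 TPM in the YS lines. In BM lines it was at 1.01, 2.26 and 0.51 TPM (difference 1.40, adjusted p = 0.081, limma). This call was lost without any 1 of YS lines 1 to 3, FL line 3, BM line 1 or BM line 3 (1.15 to 1.53). In FL lines Tyk2 was at 48.34, 38.58 and 34.88 TPM, above every BM line, and Socs1 was at 8.46, 1.13 and 5.43 TPM. Neither was called in FL against BM lines (0.45 and 1.24, adjusted p = 0.32 and 0.14, limma).

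Of the 10 genes listed under control of mRNA decay and translation, Zfp36l1, which encodes a protein that binds AU-rich elements, differed most in size. It was at 129.33, 83.55 and 112.01 TPM in the YS lines, 75.99, 37.90 and 7.53 in FL lines and 0.00, 13.86 and 0.05 in BM lines. The log2 difference in YS against BM lines was 5.43 ± 1.10 (adjusted p = 0.0096) with all lines, 6.71 without BM line 2, 4.77 without BM line 1 and 4.80 without BM line 3. In FL against BM lines it was 3.56 ± 1.10 (adjusted p = 0.053), with overlap through BM line 2. It was 4.85 without BM line 2 and 4.45 without FL line 3, and it was not called without FL line 1 (2.87), FL line 2 (3.36), BM line 1 (2.90) or BM line 3 (2.93). Its relatives Zfp36, which encodes tristetraprolin, and Zfp36l2 lay between 70.36 and 133.67 TPM and between 183.25 and 245.07 TPM and were not called. Tnfaip3, which encodes A20, a ubiquitin-editing inhibitor of NF-kB and not a regulator of mRNA decay, was kept in this list as written. It was lower in YS lines, at 7.70, 16.96 and 8.63 TPM against 28.50, 26.13 and 36.19 in BM lines. The difference was -1.44 (adjusted p = 0.022, limma). FL lines, at 18.04, 9.22 and 23.79 TPM, were also below every BM line, without a call (-0.88, adjusted p = 0.13, limma).

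Among the other interleukins and TNF family ligands, 11 of the 33 listed passed the filter and 10 were listed at 0 in every line, Il2, Il12a, Il17a and Il33 among them. Tnfsf13, which encodes APRIL, a survival factor of plasma cells, was at 7.40, 8.85 and 16.68 TPM in the YS lines, 7.42, 10.34 and 12.34 in FL lines and 171.32, 137.49 and 168.14 in BM lines. Its log2 difference from BM lines was -3.81 ± 0.28 in YS lines and -3.88 ± 0.28 in FL lines (adjusted p = 0.00022 and 0.00019), and both were called under every alternative. Tnfsf10, which encodes TRAIL, was at 4.61, 10.25 and 12.33 TPM in the YS lines, 1.83, 0.03 and 1.22 in FL lines and 0.09, 1.15 and 0.06 in BM lines, and was called in YS against BM lines (2.80, adjusted p = 0.0057) and against FL lines (2.34, adjusted p = 0.041), the latter lost without FL line 2 (1.91, adjusted p = 0.11) or FL line 3 (2.47, adjusted p = 0.11). Osm, a cytokine of the IL-6 family, was at 5.40, 5.54 and 10.52 TPM in the YS lines, 5.63, 8.22 and 0.97 in FL lines and 0.08, 1.78 and 0.00 in BM lines, and was called in YS against BM lines (2.44, adjusted p = 0.021) and in FL against BM lines (1.78, adjusted p = 0.076). The latter was lost without FL line 1, FL line 2, BM line 1 or BM line 3, with differences of 1.32 to 1.57. Tnfsf8, which encodes the ligand of CD30, was at 0.00, 0.21 and 1.20 TPM in the YS lines, 0.30, 0.06 and 10.17 in FL lines and 12.09, 7.21 and 4.39 in BM lines, lower in YS than in BM lines (-2.59, adjusted p = 0.048). That call was lost without YS line 1, YS line 2, BM line 1 or BM line 2, with differences of -2.60 to -2.26.

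By group mean, the members stood in the order Tnf, Il18, Il15, Il1rn, Il16, Il27, Il10, Il6, Il1b and Il1a in YS lines, with 90.8 ± 43.6, 69.6 ± 37.6, 48.7 ± 16.3, 27.3 ± 24.2, 19.9 ± 7.25, 6.37 ± 3.61, 2.47 ± 1.45, 1.19 ± 1.24, 0.86 ± 0.38 and 0.49 ± 0.61 TPM (SD, n = 3). Each gene overlapped its neighbour in this order, except Il16 and Il27, whose YS values did not meet. In BM lines the order was Tnf, with 93.4 ± 5.15 TPM, Il1rn, with 59.1 ± 5.67 TPM, Il18, with 23.6 ± 6.45 TPM, and Il15, with 20.3 ± 4.16 TPM, and the other 6 members were at 2.22 TPM or less in every line. In BM lines Tnf, Il1rn and the pair of Il18 and Il15 occupied separate ranges. In FL lines Tnf (76.7 ± 20.6 TPM), Il18 (52.0 ± 22.0 TPM), Il1rn (47.6 ± 19.5 TPM) and Il15 (27.2 ± 9.10 TPM) overlapped from one to the next, Il16 (8.93 ± 1.01 TPM) lay below them and above Il27 (3.08 ± 2.01 TPM) in each line, and Il1b (2.59 ± 1.35 TPM) overlapped Il27.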

How the data were processed

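The authors trimmed single reads of 75 nt with Trim Galore 0.6.6, aligned them with STAR 2.7.9a and quantified genes with RSEM 1.3.3, per the labels, and deposited 1 table of TPM (2 decimals, equal sums). The genome build, annotation and strand setting are not given in the sources used here. Groups came from the sample titles. From the deposited TPM, log2(TPM + 1) was computed, and limma 3.58.1 (R 4.3.3) was run over all 9 libraries with an intensity trend, on the genes that reached 1 TPM in 3 libraries or more. The test was tested on simulated data. The depth is unknown, so the spread among 3 lines is the only measure of precision. The members and gene lists were chosen with earlier results of these data known. Named were all members, the receptors and partners, up to 4 called genes without overlap in each other role, the 3 genes nearest in pattern to each called member, and neighbours called with it (all for the Il1 cluster, Tnf and Il10). Casp1, Zfp36, Zfp36l2, Apobr, Tex12, Stard5 and the ligands listed at 0 were named after their values were seen. Neighbours and promoters came from RefSeq (GRCm38.p6) by symbol, and overlaps and 3′ UTRs from GENCODE M21 (GRCm38). Alternatives changed the pseudocount, filter, scaling, variance trend, libraries, thresholds and a replicate block. Some genes of the pathway list are counted but not reported by name here.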

Additional observations from a re-analysis of the deposited data

How the results depend on the processing

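Il16 and Il27 in YS against BM lines and Il16 in FL against BM lines kept their call in all 20 alternatives. The members called in YS against BM lines numbered 3 to 5 with a line left out, those in FL against BM lines 2 to 3 and those in YS against FL lines 0 to 1. In FL against BM lines the members called were 1 with a pseudocount of 4 and 4 with only the 6 libraries compared. The pathway genes called with a line left out were 12 to 17, 2 to 8 and 1 to 5 in the same order. With no fold threshold they were 31, 19 and 10. At a false discovery rate under 0.05 they were 3 in FL against BM lines and 3 in YS against FL lines. In YS against FL lines a pseudocount of 4 gave 3, a filter of 5 TPM 2 and only the 6 libraries 1. Signs turned for 4 differences near 0 when a line was left out. In YS against FL lines, Il10 ranged from -0.0018 (without YS line 2) to 0.59, Il18 from -0.048 (without YS line 3) to 0.69 and Tnf from -0.19 (without YS line 3; -0.06 without FL line 2) to 0.52. In YS against BM lines, Tnf ranged from -0.51 to 0.20 (without YS line 1).

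The labels number the lines 1 to 3 in each group. Same-numbered lines deviated from their group means with correlations between -0.118 and 0.088. The highest correlation of a line with other-numbered lines of the second group lay between -0.038 and 0.118. Whether same-numbered lines share more than a number is not stated, and these values cannot settle it. A replicate block left 4 members called in YS against BM lines, 2 in FL against BM lines and 0 in YS against FL lines, and brought the pathway genes called in YS against FL lines to 3. The cause of these changes was not tested. Lines left out leave a group with 2 libraries. Low genes such as Il1a, Il6, Il1b and Il10 rest on few reads of unknown number.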
